A study of Mus musculus with 7 samples.

Results

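Potassium channel genes were followed in the lower incisor epithelium of newborn mice with and without an epithelial deletion of Nogo-A. All genes were taken whose mouse symbol on GRCm38 has the form of a potassium channel subunit (Kcn, a family letter and a number) and which reached 10 counts in 2 or more of the 7 libraries. Of 93 genes with such a symbol 59 were members, out of 25700 genes in the count tables. Each library holds the poly(A) RNA of 1 newborn (PN0), from incisor epithelium freed with Dispase on both sides of the jaw and pooled. The genotype of pups 1, 2, 7 and 10 was K14cre cre/+; Nogo-A fl/fl, called K14;Nogo-A here (n = 4), and pups 3, 8 and 9 were wild-type (n = 3). In K14;Nogo-A the K14 promoter drives Cre in epithelial cells, where the floxed exon specific to Nogo-A is removed. Mesenchymal, endothelial and nerve cells keep the exon, and the Nogo-B and Nogo-C forms, which lack it, are not deleted in any cell.

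Potassium channels let potassium ions leave or enter a cell along their gradient and so set its membrane potential. Voltage-gated channels open on depolarization, inward rectifiers pass potassium mainly at negative potentials, two-pore channels carry a background leak, and calcium-gated channels open when calcium rises in the cell. Most of them are assembled from 4 pore-forming subunits, and two-pore channels from 2 subunits with a pair of pore loops each. Auxiliary subunits form no pore and change the gating or the trafficking of the channel. In the enamel organ the ameloblasts secrete the enamel matrix and move calcium, bicarbonate and protons, and such transport depends on the membrane potential.

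The members comprised 48 pore-forming and 11 auxiliary subunits. All 48 pore-forming genes carried, in frame in their coding sequence, the potassium selectivity filter signature, and none of the 11 auxiliary genes did. The signature was searched on the sense strand of 1 annotated coding sequence per gene, as 5 codons that stand for threonine or serine, any residue, glycine, then tyrosine, phenylalanine or leucine, then glycine. It was present in 81.4% of the members and in 6.18% of the 14411 protein-coding genes tested, so a match alone is a description of letters and not a pore. In Kcna6 and Kcnh2 an additional match lay outside the filter. All 7 two-pore genes had 2 filters. In the first one the fourth codon stood for tyrosine in 5 genes and phenylalanine in 2, and in the second for phenylalanine in 4 and leucine in 3. The 3 genes with leucine were Kcnk1, Kcnk6 and Kcnk7. In all 7 genes an exon junction split the first filter after its base 7.

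The filters are shown for Kcnk1, the most abundant member, and for 4 of the members past the study's thresholds (given with the comparison), with 6 codons on either side and the 5 filter codons in capitals. They were read 5′ to 3′ on the strand of the gene from GENCODE M21 transcripts on GRCm38. The Kcnk1 filters lie on the plus strand, the first across the end of exon 1 and the start of exon 2 (chr8:125995790-125995814 and chr8:126025012-126025037) and the second in exon 2 (chr8:126025311-126025361). Those of Kcnk3 lie on the plus strand of exons 1 and 2 (chr5:30588575-30588599 and chr5:30621891-30621916) and of exon 2 (chr5:30622184-30622234). Those of Kcnk7 lie on the plus strand of exons 1 and 2 (chr19:5704770-5704794 and chr19:5706067-5706092) and of exon 2 (chr19:5706363-5706413). The single filters are in exon 8 of Kcnh3 (chr15:99232911-99232961, plus strand) and exon 8 of Kcnma1 (chr14:23528395-23528445, minus strand).
Kcnk1, first filter: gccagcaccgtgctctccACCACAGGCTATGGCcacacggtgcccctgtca
Kcnk1, second filter: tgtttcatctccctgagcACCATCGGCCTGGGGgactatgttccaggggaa
Kcnk3, first filter: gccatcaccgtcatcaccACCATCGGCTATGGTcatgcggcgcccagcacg
Kcnk3, second filter: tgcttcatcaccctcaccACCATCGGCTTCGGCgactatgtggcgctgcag
Kcnk7, first filter: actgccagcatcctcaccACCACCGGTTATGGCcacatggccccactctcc
Kcnk7, second filter: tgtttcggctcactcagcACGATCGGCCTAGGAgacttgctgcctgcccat
Kcnh3: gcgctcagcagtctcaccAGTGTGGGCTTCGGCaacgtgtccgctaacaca
Kcnma1: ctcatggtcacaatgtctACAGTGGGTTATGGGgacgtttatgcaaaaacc

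The libraries held 20929207 to 41219439 counts on genes, of which the members took 0.0515% to 0.0662%. All 59 members passed the filter for testing (10 or more counts in 50% or more of 1 genotype's libraries), 53 in both genotypes, 5 through wild-type alone and 1 through K14;Nogo-A alone. Kcnj10 passed through K14;Nogo-A alone, and Kcna1, Kcna2, Kcna5, Kcnk13 and Kcnq3 through wild-type alone. None of these 6 had more than 34 counts in a library. None was past the study's thresholds, but Kcna5 was among the lower members by limma-voom, with thinned counts and without K14;Nogo-A pup 7. Just inside the rule were Kcna1 and Kcnq3 with 2 libraries at the minimum, and just outside it Kcnk4, Kcng4 and Kcnmb2 with 1 library and highest counts of 11, 10 and 10. The epithelial markers Krt5, Krt14, Epcam and Trp63 were present in every library, and so were all 11 mesenchymal markers. The summed level of the latter was 10992 to 33037 CPM (counts relative to the TMM-scaled library total) in K14;Nogo-A, against 26040 to 40976 in wild-type. Y-linked transcripts (Ddx3y, Eif2s3y, Kdm5d and Uty) averaged 4.94 to 5.27 on the log2 CPM scale in K14;Nogo-A pup 1 and wild-type pups 3 and 8, and -3.71 to -3.04 in the other 4. Sex is not among the labels.

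The level of the potassium channel genes was dominated by 1 gene. Kcnk1, a two-pore subunit of the weakly inward-rectifying TWIK type (ENSMUSG00000033998, chromosome 8 of GRCm38 from 125995170 to 126030685), had a mean of 107.9 CPM per kb of exon over the 7 libraries, with values from 63.4 to 126. Its CPM were 248, 282, 277 and 270 in K14;Nogo-A pups 1, 2, 7 and 10, and 203, 142 and 268 in wild-type pups 3, 8 and 9. Wild-type pups 3 and 8 lay below all other libraries, and pup 9 lay within the range of K14;Nogo-A. Kcnk1 alone made up 44.4% to 58.97% of the members' summed level per kb. With the length of 1 transcript in place of all exons, a choice made once the data had been seen, its share was 34.8% to 49.8% and it still ranked first.

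**Figure D1:**
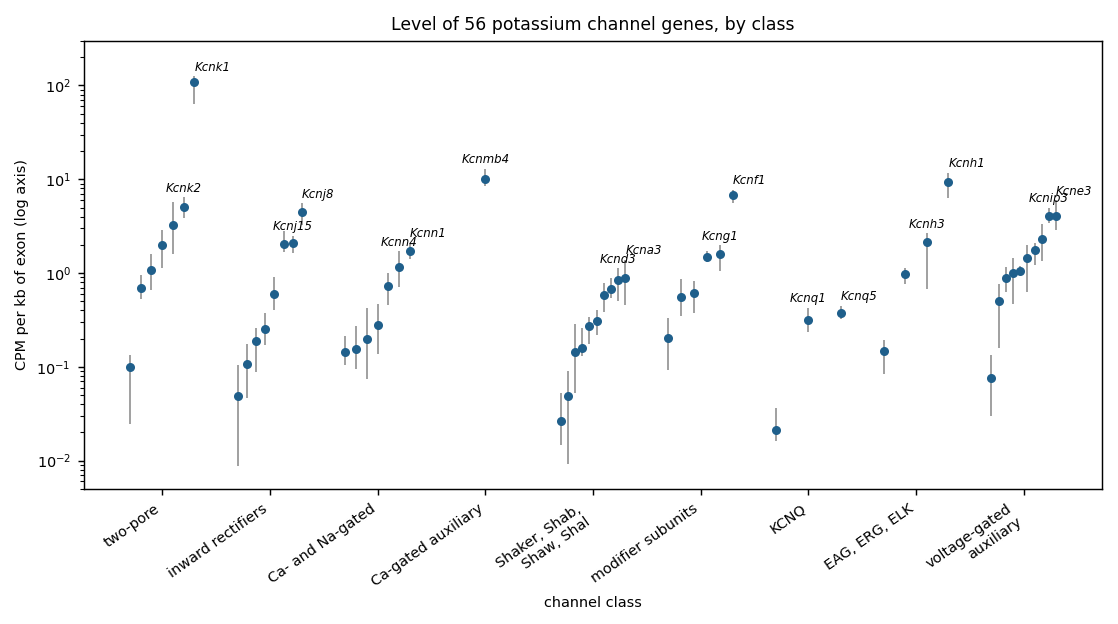
Level of 56 of the genes by channel class, in CPM per kb of exon on a log axis. Points are means over the 7 libraries and lines run from the lowest to the highest library; the 2 highest genes plotted in a class are named, and Kcnk1 at 107.9 stands above Kcnmb4 at 10.2 and Kcnh1 at 9.24.

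Below Kcnk1 the order per kb of exon was Kcnmb4, the auxiliary beta subunit of the large-conductance calcium-gated channel, with a mean level of 10.2 CPM per kb, Kcnh1, a voltage-gated subunit of the ether-à-go-go (EAG) type, with 9.24, and Kcnf1, a modifier subunit that forms no channel alone, with 6.73. Then came Kcnk2, a two-pore subunit that responds to membrane stretch, at 5.03 CPM per kb, Kcnj8, the pore of a metabolically gated inward rectifier, at 4.53, and the auxiliary subunits Kcne3 and Kcnip3 at 4.10 and 4.09. The ranges of Kcnmb4 (8.40 to 13.0 CPM per kb) and Kcnh1 (6.38 to 11.8) overlapped, as did those of Kcne3 and Kcnip3, whereas no library of another member reached the lowest value of Kcnk1. By transcript length Kcnk1 and Kcnmb4 ranked first and second again. The order below them depended on the length used: Kcnma1, whose annotated exons add up to 16976 bp, ranked 30 per kb of exon and 11 per kb of transcript. At the low end 23 of the 59 members had a mean count under 50.

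No potassium channel gene rose or fell in K14;Nogo-A. At an adjusted p under 0.05 edgeR's quasi-likelihood test called 0 of the 59 members, where it called 0.0338% of the 14791 genes tested, and the smallest adjusted p of a member was 0.253. The likelihood-ratio test, DESeq2 and limma-voom also called 0 members. An unadjusted p of 0.05 or less was reached by 9 members, 15.3%, against a background of 12.9%. At the study's thresholds (P of 0.05 or less before adjustment, log2 fold change beyond 0.5 either way), 3 members were higher (5.08% of the 59, background 2.02%) and 3 lower (background 2.74%). The higher ones were Kcnk3, Kcnk7 and Kcnh3, and the lower ones included Kcnn2 and Kcnma1. These counts are small. They were 1 higher and 2 lower without wild-type pup 8, and 7 higher and 3 lower without wild-type pup 9. The counts over all genes moved with them, from 299 higher and 406 lower to 146 and 240 of 14990 genes without pup 8, and to 542 and 534 of 15161 without pup 9.

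**Figure D2:**
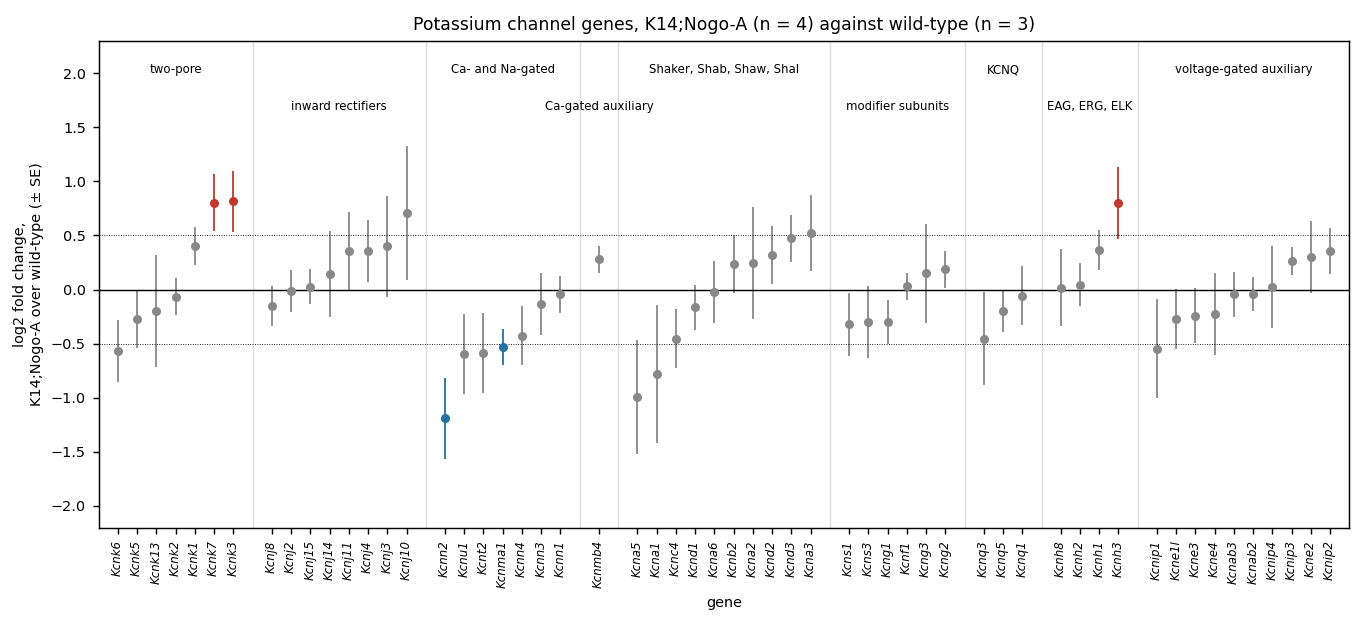
Log2 fold change (K14;Nogo-A over wild-type, ± SE) of 56 of the genes, grouped by class and ordered within it; dotted lines mark 0.5 in size. Red points (Kcnk7, Kcnk3, Kcnh3) are higher and blue points (Kcnn2, Kcnma1) lower at the study's thresholds. All 7 genes grouped by symbol as calcium-gated and sodium-activated lie below 0.

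The 59 log2 fold changes ran from -1.19 for Kcnn2 to 0.82 for Kcnk3, with a median of -0.022, beside -0.0069 over all genes tested. They were above 0 in 28 members, 47.5%, against 48.5% of all genes. Genotypes did not overlap in 2 members on the higher side (Kcnk7 and Kcnh3, 3.39% of the members, background 5.43%) and in 4 on the lower side (Kcnc4, Kcnma1 and Kcnq5 among them, 6.78%, background 6.09%). These shares are near those of all genes. The size was under 0.5 in 45 of the 59 members.

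Among the two-pore genes Kcnk3 and Kcnk7 had the largest positive differences of all members and Kcnk6 the largest negative one of the class. Kcnk3 (ENSMUSG00000049265, chromosome 5 from 30588170 to 30625271), an acid-sensitive leak channel, had 9.51, 22.6, 16.4 and 14.9 CPM in K14;Nogo-A pups 1, 2, 7 and 10 and 11.4, 6.28 and 9.41 in wild-type pups 3, 8 and 9. Only wild-type pup 3 exceeded a K14;Nogo-A library, pup 1. It had a log2 fold change of 0.82 (SE, the standard error, 0.28; adjusted p = 0.291 by edgeR; exact two-sided permutation test, p = 0.0857), and it was 0.61 without wild-type pup 8, with an adjusted p of 0.736 and an unadjusted p of 0.0661 in the same edgeR test. With the Y-linked transcripts as a covariate it was 0.56, at an unadjusted p of 0.0919 by edgeR. Kcnk7 (ENSMUSG00000024936, chromosome 19 from 5704367 to 5707109), whose protein has not given currents when expressed alone, had 2.12, 2.52, 2.23 and 1.49 CPM in K14;Nogo-A and 1.03, 1.24 and 1.34 in wild-type. All K14;Nogo-A libraries lay above all wild-type ones, on 28 to 64 counts per library. Its log2 fold change was 0.80 (SE 0.26, adjusted p = 0.268 by edgeR), with p = 0.0571 by the exact two-sided permutation test.

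Kcnk1 itself had a log2 fold change of 0.40 (SE 0.17, adjusted p = 0.368 by edgeR). It was 0.66 without wild-type pup 9, at an adjusted p of 0.0578, and 0.20 without wild-type pup 8. The 3 lowest CPM of Kcnk1, in wild-type pups 8 and 3 and K14;Nogo-A pup 1, were those of the 3 libraries with Y-linked expression. The same 3 libraries had the lowest summed level of the 9 epithelial markers, with 5915, 7018 and 7700 CPM against 8727 to 9294 in the others, and in a fit that took Y-linked expression as a covariate the log2 fold change of Kcnk1 was 0.28. What part these had in the difference was not tested.

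Kcnk6, a two-pore subunit of the TWIK type like Kcnk1 and found in lysosomes among other sites, had 11.7, 5.04, 4.67 and 6.14 CPM in K14;Nogo-A and 11.9, 9.06 and 9.51 in wild-type. K14;Nogo-A pup 1 lay with the wild-type libraries, and the other 3 below them. This gave a log2 fold change of -0.57 (adjusted p = 0.437 by edgeR) with all libraries. Without K14;Nogo-A pup 1 it was -0.94 at an adjusted p of 0.0299, the only call of a member in any of the alternatives. That fit called 97 genes higher and 124 lower in all, where with all libraries 5 genes were called. Kcnk6 was named here after its values were seen. Kcnk2 had a log2 fold change of -0.068 and a range of 19.0 to 31.8 CPM over all libraries, with the genotypes overlapping. Kcnk5, a leak channel activated by alkaline conditions, and Kcnk13 had log2 fold changes of -0.28 and -0.20. Kcnk13 passed the filter for testing through wild-type alone, which favours a negative value.

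**Figure D3:**
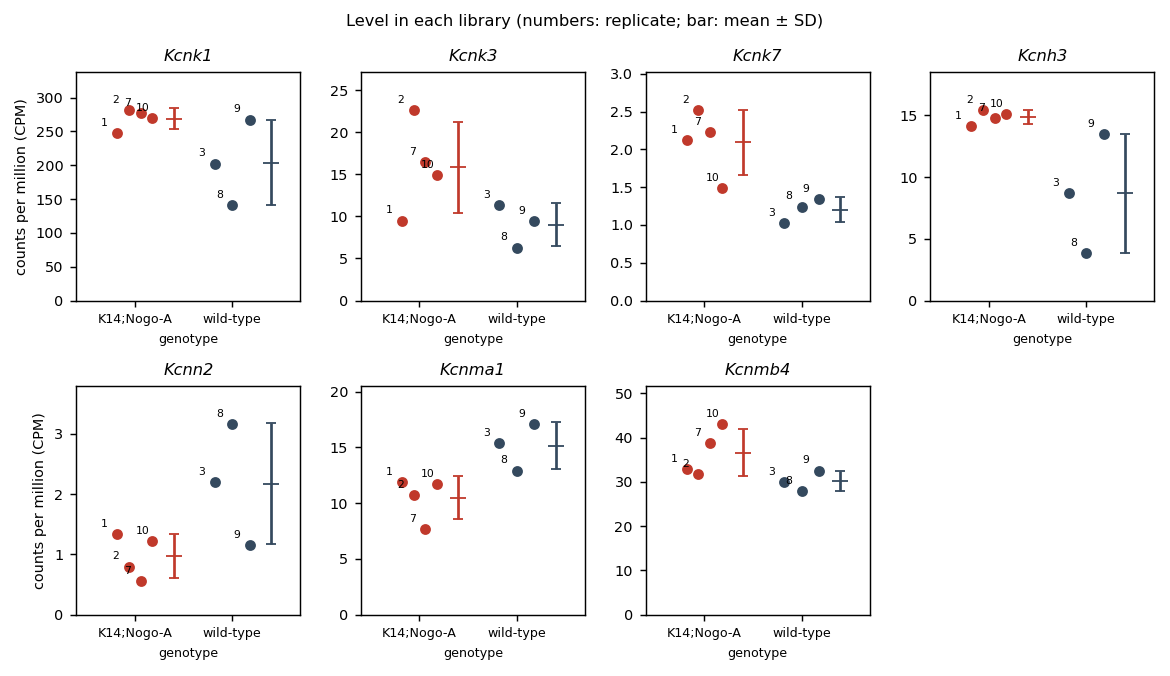
CPM of Kcnk1, 5 genes past the study's thresholds and Kcnmb4 in each library (points, numbered by replicate), with mean ± SD beside them; red K14;Nogo-A (n = 4), dark wild-type (n = 3). Kcnk7 and Kcnh3 are higher, and Kcnma1 lower, in every K14;Nogo-A library than in any wild-type library.

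The pore-forming genes grouped by symbol alone (Kcnma, Kcnn, Kcnt and Kcnu) as calcium-gated and sodium-activated all had lower mean log2 values in K14;Nogo-A. The fold change was below 0 in 7 of 7, where 48.5% of all genes tested lay above 0. The median log2 fold change was -0.53, and 2 were past the study's thresholds downward (background 2.74%). Genes of a class are not replicates, and no test was run over them. All 7 remained below 0 under the 8 other normalizations, tests, filters and thinned counts tried. One gene was above 0 without K14;Nogo-A pup 2, wild-type pup 8 or wild-type pup 9, and with the Y-linked covariate, where the median was -0.19. Kcnma1, the pore of the large-conductance channel opened by voltage and calcium (ENSMUSG00000063142, chromosome 14 from 23289431 to 24014491), had 11.9, 10.7, 7.67 and 11.7 CPM in K14;Nogo-A pups 1, 2, 7 and 10 and 15.4, 12.9 and 17.1 in wild-type pups 3, 8 and 9. Every K14;Nogo-A library lay below every wild-type one. Its log2 fold change was -0.53 (SE 0.17, adjusted p = 0.26 by edgeR; exact two-sided permutation test, p = 0.0286, the smallest p these 7 libraries can give). It was -0.40 without K14;Nogo-A pup 7 and -0.42 without wild-type pup 9, both under the 0.5 limit.

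Kcnn2, a small-conductance calcium-gated subunit (ENSMUSG00000054477), had the largest difference of all members. Its values were 1.34, 0.796, 0.558 and 1.22 CPM in K14;Nogo-A and 2.19, 3.17 and 1.15 in wild-type, on 16 to 130 counts. Wild-type pups 3 and 8 lay above all other libraries and pup 9 within the K14;Nogo-A range. This gave a log2 fold change of -1.19 (SE 0.38, adjusted p = 0.253 by edgeR), and the exact two-sided permutation test gave p = 0.143. The log2 fold change was -0.82 without wild-type pup 8 and -0.74 with the Y-linked covariate. In these last fits its unadjusted p by edgeR was 0.0668 and 0.0601, above the limit of 0.05 that the study set. Kcnn4, the intermediate-conductance channel of epithelia and blood cells, had 8.12 CPM in K14;Nogo-A pup 1 and 3.59 to 5.11 in the other 3, against 5.91 to 8.76 in wild-type. It had a log2 fold change of -0.43 with all libraries, -0.72 without K14;Nogo-A pup 1, -0.28 without K14;Nogo-A pup 7, -0.21 without wild-type pup 3 and -0.19 with the Y-linked covariate. Kcnn1 and Kcnn3, the other small-conductance subunits, had -0.043 and -0.13, and Kcnt2, a sodium-activated channel, and Kcnu1, a channel known from sperm, had -0.59 and -0.60 with overlapping genotypes.

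The auxiliary subunit Kcnmb4 did not share the direction of Kcnma1, the pore of the large-conductance channel. Its CPM were 32.9, 31.7, 38.7 and 43.1 in K14;Nogo-A and 30.0, 27.9 and 32.6 in wild-type, with only K14;Nogo-A pup 2 below a wild-type library (pup 9). Its log2 fold change was 0.28 (SE 0.12, adjusted p = 0.373 by edgeR). The ratio of Kcnmb4 to Kcnma1, both per kb of exon, was 14.2, 15.1, 25.8 and 18.8 in K14;Nogo-A pups 1, 2, 7 and 10 and 9.95, 11.04 and 9.73 in wild-type pups 3, 8 and 9. Auxiliary transcripts were thus in excess in every library, by 18.5 ± 5.27 times (SD, n = 4) and 10.2 ± 0.705 times (SD, n = 3), and the genotypes did not overlap. By transcript length the ratios were 5.23 to 13.9. The ratio was chosen after the values of both genes were seen, and no test is given for it.

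**Figure D4:**
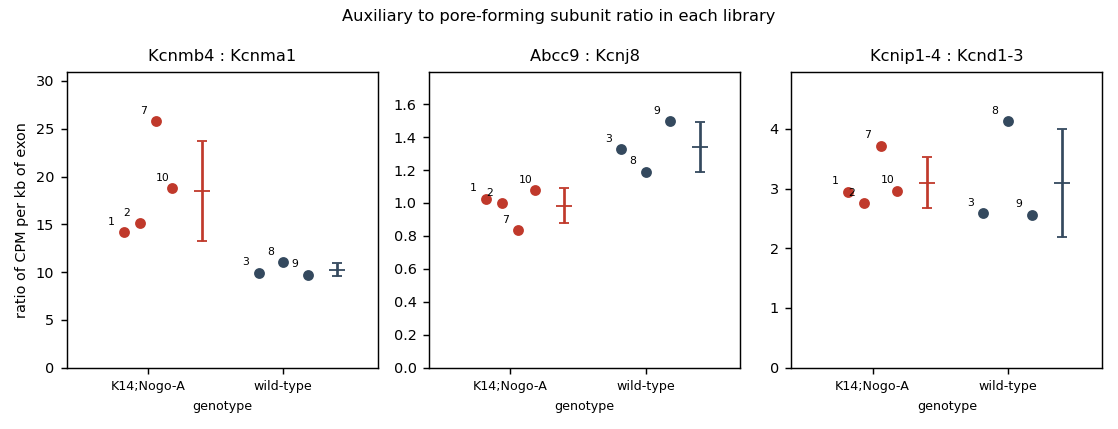
Ratio of auxiliary to pore-forming subunit transcripts in each library (points, numbered by replicate; bar, mean ± SD), each per kb of exon; red K14;Nogo-A, dark wild-type. Kcnmb4 over Kcnma1 lies at 14.2 to 25.8 in K14;Nogo-A, against 9.73 to 11.04 in wild-type, Abcc9 over Kcnj8 at 0.833 to 1.08 and 1.19 to 1.50, and Kcnip1-4 over Kcnd1-3 overlaps.

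Among the marker lists the endothelial one lay lower in K14;Nogo-A without overlap, by summed level and by mean log2 CPM. The mesenchymal list did so by mean log2 CPM alone, and the other lists overlapped between genotypes. No marker had an adjusted p under 0.05 by edgeR. All 11 mesenchymal markers had a negative log2 fold change (median -0.49; 2 past the thresholds), and their mean log2 CPM was 8.27 to 8.93 in K14;Nogo-A, against 9.12 to 9.27 in wild-type. The 8 endothelial markers were all negative as well (median -0.51), with 5 past the thresholds and 3 without overlap. Over all genes 2.02% were past the thresholds upward and 2.74% downward. The summed endothelial levels were 142 to 244 CPM in K14;Nogo-A, against 252 to 276 in wild-type. No mesenchymal or endothelial marker was at 0. The 9 smooth muscle and pericyte markers overlapped, at 406 to 548 and 483 to 595 CPM, as did the 8 Schwann cell markers, at 57.9 to 62.7 and 56.1 to 63.0 CPM. The 5 odontoblast markers were all negative (median -0.76; 1 past the thresholds), at 1758 to 5317 CPM beside 3920 to 6354, and 8 of the 9 immune markers were negative (median -0.31; 1 past the thresholds), at 44.9 to 86.6 CPM beside 61.4 to 96.9. Of the 9 neuronal markers 4 were too low to test. The 9 epithelial markers had 8 positive values, with summed levels of 7700 to 9253 CPM in K14;Nogo-A that overlapped the 5915 to 9294 in wild-type. All 7 ameloblast markers were positive (median 1.32; 3 past the thresholds), with summed levels of 31399 to 103577 CPM beside 12759 to 40506. The part of these cells in the values of Kcnma1 and Kcnn2, or of Kcnk3, Kcnk7 and Kcnh3, was not tested. In whole tissue, fewer cells of a type and less RNA per cell cannot be told apart.

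In the voltage-gated classes 14 of 26 pore-forming and modifier genes had a positive log2 fold change, beside 48.5% of all genes. Past the study's thresholds were 1 upward, Kcnh3, and 1 downward, beside 2.02% and 2.74% of all genes. Kcna1, Kcna2, Kcna5 and Kcnq3 passed the filter for testing through wild-type alone, which favours a negative value. Of these Kcna1, Kcna5 and Kcnq3 were negative and Kcna2 positive. Kcna3, a Shaker-type channel known from lymphocytes, had a log2 fold change of 0.52 on 0.877 to 2.65 CPM, with overlapping genotypes. Kcnc4 did not overlap, at 0.646 to 1.01 CPM in K14;Nogo-A, against 1.10 to 1.25 in wild-type, with a log2 fold change of -0.45 (adjusted p = 0.505 by edgeR). Kcnd1, Kcnd2 and Kcnd3, the Shal-type genes of transient currents, had -0.16, 0.32 and 0.47.

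The 4 genes of the EAG, ERG and ELK types had positive log2 fold changes, with a median of 0.21, where 48.5% of all genes lay above 0. Kcnh3, an ELK-type channel that opens at negative potentials (ENSMUSG00000037579, chromosome 15 from 99224861 to 99242817), had 14.1, 15.4, 14.8 and 15.1 CPM in K14;Nogo-A and 8.71, 3.87 and 13.4 in wild-type. The K14;Nogo-A libraries lay close together and all above wild-type, whose values spread more than 3-fold. This gave a log2 fold change of 0.80 (SE 0.33, adjusted p = 0.36 by edgeR; exact two-sided permutation test, p = 0.0286), and 0.44 without wild-type pup 8. Its unadjusted p by edgeR was between 0.053 and 0.0992 without any one of wild-type pup 3 and the 4 K14;Nogo-A libraries, 0.0613 with no filter on low counts and 0.0657 with the Y-linked covariate. Kcnh1 had 58.1, 81.0, 74.2 and 86.3 CPM in K14;Nogo-A and 51.01, 46.8 and 77.1 in wild-type, with wild-type pup 9 within the K14;Nogo-A range. It had a log2 fold change of 0.37 (SE 0.18, adjusted p = 0.431 by edgeR), and it was 0.63 without wild-type pup 9, 0.23 without wild-type pup 8 and 0.16 with the Y-linked covariate. Kcnh2 and Kcnh8 had 0.047 and 0.019, and at least 1 of the 4 genes was below 0 by limma-voom, with thinned counts, and without K14;Nogo-A pup 2 or 7 or wild-type pup 8 or 9.

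Among the KCNQ genes, channels of slow non-inactivating currents, Kcnq5 had 2.49 to 2.82 CPM in K14;Nogo-A, against 2.86 to 3.46 in wild-type. The genotypes did not overlap, but the difference was small, with a log2 fold change of -0.20 (adjusted p = 0.683 by edgeR). The 6 modifier subunits had 3 positive and 3 negative values between -0.32 and 0.19. Kcnf1 stood at 29.6 to 37.0 CPM in K14;Nogo-A, against 26.8 to 35.5 in wild-type (log2 fold change 0.031), Kcng1 had -0.30 and Kcns1 -0.32.

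The 10 auxiliary subunits of voltage-gated channels had log2 fold changes between -0.54 and 0.36, with 4 positive and 6 negative, and none was past the study's thresholds. Kcnip3, a calcium-binding partner of Shal-type channels that also acts as a transcriptional repressor, had 13.6 to 17.7 CPM in K14;Nogo-A, against 12.2 to 13.8 in wild-type. Only K14;Nogo-A pup 1 lay below a wild-type library, and the log2 fold change was 0.26 (adjusted p = 0.424 by edgeR). Kcnip2, of the same family, had 0.36. Kcne3, which turns the KCNQ channel of epithelia into a constantly open one, had 5.08 to 10.7 CPM in K14;Nogo-A, against 7.11 to 9.45 in wild-type. Its log2 fold change was -0.24, and it moved from -0.56 without K14;Nogo-A pup 7 to -0.13 without K14;Nogo-A pup 2 and -0.097 without wild-type pup 8. The Kcnip1 to Kcnip4 transcripts together were 2.57 to 4.13 times as abundant per kb as those of Kcnd1 to Kcnd3 (1.57 to 2.91 times by transcript length), with overlapping genotypes. Kcnip4 shares 168 bp of its exons with 5730480H06Rik on the opposite strand, which had a mean of 363 counts against 55.7 for Kcnip4, and reads of the shared stretch cannot be assigned without the strand setting.

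Of the 8 inward rectifiers 6 had a positive log2 fold change (median 0.25), beside 48.5% of all genes, and none was past the study's thresholds. Kcnj8 had 8.35 to 14.2 CPM in K14;Nogo-A, against 11.8 to 12.8 in wild-type, with a log2 fold change of -0.15. Kcnj15 and Kcnj2, the next highest per kb, had 0.028 and -0.015. Kcnj4 had 1.29, 1.94, 1.29 and 1.22 CPM in K14;Nogo-A and 1.38, 1.05 and 0.865 in wild-type, with a log2 fold change of 0.36. Kcnj10 had the largest value of the class, 0.71, on 1 to 15 counts per library. It passed the filter for testing through K14;Nogo-A alone, which favours a positive value, and it is 1 of the 6 positive genes. Kcnj8 was 9.3 to 29.2 times as abundant per kb as Kcnj11, the other pore subunit of the ATP-sensitive channels, in either genotype.

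Partners of these channels that carry other symbols were taken from a list. Abcc9, the sulfonylurea receptor that assembles with the Kcnj8 and Kcnj11 pores, had 28.2, 41.5, 39.0 and 31.4 CPM in K14;Nogo-A and 51.4, 50.1 and 59.8 in wild-type. The genotypes did not overlap, and the log2 fold change was -0.62 (SE 0.14, adjusted p = 0.168 by edgeR), with values between -0.75 and -0.53 in the 16 alternatives. Abcc9 per kb was 0.985 ± 0.106 times Kcnj8 in K14;Nogo-A (SD, n = 4) and 1.34 ± 0.153 times in wild-type (SD, n = 3). No test and no value by transcript length is given for this ratio, and Abcc9 alone already separated the genotypes. Of the 10 partners tested 1 was past the study's thresholds upward, Dpp10 at under 1 CPM with a log2 fold change of 1.49, and 1 downward, Abcc9. The shares over all genes were 2.02% upward and 2.74% downward.

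Potassium is brought into cells by the sodium-potassium pump and by cotransporters. Of the 14 pump and FXYD subunits tested 2 were past the study's thresholds upward and none downward, beside 2.02% and 2.74% of all genes. At an unadjusted p of 0.05 or less by edgeR, whatever the fold change, 3 were higher and 2 lower, beside 12.9% of all genes in either direction. The lower ones were Fxyd5 (log2 fold change -0.45) and Atp1b2 (-0.44), and Atp1b2 did not overlap between genotypes. Fxyd3, a small regulator of the pump, had 169, 207, 212 and 226 CPM in K14;Nogo-A and 118, 91.1 and 164 in wild-type, without overlap, at a log2 fold change of 0.72 (SE 0.18, adjusted p = 0.199 by edgeR). Fxyd2, another regulator of the pump, had 1.64 to 2.03 CPM and 1.17 to 1.24, without overlap, and a log2 fold change of 0.61. It fell short of the thresholds with thinned counts (0.32) and without wild-type pup 3 (0.63) or 8 (0.59). Of the 6 cation-chloride cotransporters tested Slc12a4, a potassium-chloride exporter that also was the highest of them at 80.7 CPM per kb, was past the thresholds upward (0.58, SE 0.20, adjusted p = 0.291 by edgeR), and none downward. It was below the limit of 0.5 with the Y-linked covariate (0.34), without K14;Nogo-A pup 2 (0.49) and without wild-type pup 8 (0.43).

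Potassium-dependent sodium-calcium exchangers couple the export of calcium to both ions. All 4 tested had positive log2 fold changes, where 48.5% of all genes did. The 1 past the study's thresholds was Slc24a4, the exchanger needed for enamel maturation, and it was higher. Over all genes 2.02% were past the thresholds upward and 2.74% downward. Slc24a4 passed the filter for testing through K14;Nogo-A alone, which favours a positive value, and it is 1 of the 4 positive genes. Slc24a4 had 0.231, 1.24, 1.36 and 0.267 CPM in K14;Nogo-A pups 1, 2, 7 and 10 and 0.143, 0.341 and 0.240 in wild-type pups 3, 8 and 9. K14;Nogo-A pups 2 and 7 stood apart from the other 5 libraries, and they were also the libraries with the highest summed ameloblast markers, 103577 and 101660 CPM against 12759 to 79091 in the others. Its log2 fold change was 1.68 (SE 0.67, adjusted p = 0.325 by edgeR). Slc24a3, the highest of the family at 11.1 CPM per kb, had 1.02 with overlapping genotypes. Slc24a4 was tested in 13 of the 16 alternatives. It missed the filter for testing without K14;Nogo-A pup 2, without pup 7 and with the CPM filter. It fell short of the thresholds by limma-voom, with the Y-linked covariate and without wild-type pup 3 or 9, with values of 1.04 to 1.69. Slc24a3 passed them in 6 of the 16 alternatives, by upper-quartile factors, the likelihood-ratio test, DESeq2, limma-voom, the CPM filter and without K14;Nogo-A pup 1. What part the ameloblast RNA had in these values was not tested. Of the 4 HCN channels, which pass potassium and sodium, none was past the thresholds, and Hcn3 had 0.30. Of 3 other potassium channels 1 was past the thresholds upward, Tmem38a, and none downward, beside 2.02% and 2.74% of all genes. Tmem38a, a potassium channel of the endoplasmic reticulum, had 38.0 to 60.8 CPM in K14;Nogo-A, against 25.8 to 40.3 in wild-type (log2 fold change 0.63, SE 0.19, adjusted p = 0.247 by edgeR). Its value was 0.42 with the Y-linked covariate and 0.47 without wild-type pup 8.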

How the data were processed

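RNA of 7 pups was sequenced. The authors prepared poly(A) libraries, trimmed reads (Trimmomatic in the submitters' processing notes, fastp in the paper), aligned them with STAR 2.7.1 to GRCm38 with the Ensembl annotation and counted them with featureCounts. The deposited values are raw counts per gene. No source used here gives the strand setting. The study's n was 4 wild-type pups, of which 1 is not analysed here.

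Gene symbols came from GENCODE M21 and matched 25664 of 25700 IDs. The 36 IDs without a symbol had 0.0348% of the total. Tests were made on genes that reached 10 counts in 50% or more of either genotype's libraries, by edgeR 4.0.16 in R 4.3.3 (TMM, robust quasi-likelihood test, no covariate), with Benjamini-Hochberg adjustment over all 14791 genes. The words rose and fell are kept for adjusted p-values under 0.05. The log2 form of the study's fold limit was used. Exact permutation tests on log2 CPM (prior count of 2) took the 35 splits into 4 and 3. P-values measure the spread between pups. The scripts were tested on simulated data.

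The members and lists were chosen with earlier results of these data known. Named were all members past the study's thresholds, the 2 highest per kb of exon and the 2 with the smallest p of each class, and for each related list those past the thresholds and the highest per kb. A few of these genes are left out of the text and plots and are not reported here. Alternatives were RLE and upper-quartile factors, the likelihood-ratio test, DESeq2 1.42.0, limma-voom (limma 3.58.1), other count filters, a Y-linked covariate, thinned counts, no limit on the fold change and each library left out. The length of 1 transcript per gene was added after seeing the data.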

Additional observations from a re-analysis of the deposited data

Results flagged for a closer look

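In 2 of the 26 named members 1 of the 4 K14;Nogo-A libraries stood far from the other 3 by Dixon's criterion, which chance meets in about 1 in 20 groups. Kcne3 had 10.67 CPM in K14;Nogo-A replicate 7, where the next library had 5.797. Kcnj4 had 1.945 CPM in K14;Nogo-A replicate 2, where the next library had 1.292.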

How the results depend on the processing

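No paired analysis was possible because the genotypes share no replicate numbers. Of the members, 3 on the higher and 3 on the lower side passed the study's thresholds. There were 5 lower by limma-voom, 1 higher with Y-linked expression as a covariate and 6 higher with no limit on the fold change. With each library left out in turn 1 to 7 were higher and 2 to 5 lower, and 0 to 1 was called at an adjusted p under 0.05 (Kcnk6 without K14;Nogo-A replicate 1). Over all genes these fits gave 146 to 542 higher and 240 to 545 lower, and the fit that called Kcnk6 called 97 genes higher and 124 lower, where with all libraries 5 were called. The causes were not tested. None of the 6 members past the thresholds reversed its sign in the 16 alternatives. Among them Kcnk7 kept its side of the thresholds in all 16, Kcnk3, Kcnn2 and Kcnma1 in 14 and Kcnh3 in 8. At these depths, members with few counts per library, such as Kcnk7 and Kcnn2, are measured less precisely than Kcnk1 with 5367 to 8494.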
